A study of Mus musculus with 4 samples.

Results

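Omp and Stoml3, 2 of the 55511 features counted, were followed through the maturation of olfactory sensory neurons (OSNs). They were chosen by name, and both counts in the merged table were equal to those of the single matrices in all 21809 cells. The data are single-cell transcriptomes of the main olfactory epithelium, where the OSNs lie with their supporting and stem cells. The tissue came from 4 male C57BL/6 mice (C57BL/6J in the methods) aged 8 weeks, kept at rest with no odorant exposure, and each mouse gave 1 library. Cells were dissociated and sorted as Hoechst+ and DRAQ7-, that is, nucleated and with an intact membrane, so cells of every type in the tissue could enter. All mice were wild type in 1 group, and the mouse was the replicate (n = 4).

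The levels were described in 15859 cells of 10 annotated types, in 10 clusters of mature OSNs, and in populations of mature OSNs. A population is the set of neurons that share 1 receptor, the receptor identity. Of 960 populations, 952 expressed an odorant receptor, 7 a trace amine receptor and 1 the cyclase subunit Gucy1b2. All 134 with 20 or more neurons expressed an odorant receptor gene, and they held 4143 of the 9791 mature OSNs that had an identity. Some of these genes, such as Olfr839-ps1, have symbols that mark them as pseudogenes. The libraries held between 23157467 and 32382702 unique molecular identifiers (UMIs, each counting 1 captured transcript), with medians between 3624.5 and 5717.5 per barcode. Of the cell barcodes, 54 sequences occurred in more than 1 library, in 108 of the 21809 cells. A level is given as UMIs of the gene per 10000 UMIs of all cells of a group in 1 mouse.

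The olfactory epithelium makes neurons throughout life. Globose basal cells divide into immediate neuronal precursors, which become immature OSNs, choose a receptor and then acquire the cilia and signalling proteins of a mature OSN. Omp encodes the olfactory marker protein, an abundant cytoplasmic protein by which mature OSNs are recognised and without which their odorant responses are slowed. Stoml3 encodes a member of the stomatin family, proteins that sit on the inner face of membranes; it is found in the cilia of OSNs, and in touch neurons it tunes mechanosensitive channels.

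The Omp gene (ENSMUSG00000074006) lies at chr7:98143359-98145502 on the minus strand of GRCm38 and has 1 exon of 2144 bases, 489 of them coding. It lies within an intron of Capn5, a calpain protease gene on the same strand, and 0 Capn5 exons overlap it, although the nearest is only 13 bases away. Capn5 was at 0.0737 ± 0.0112 UMIs per 10000 in mature OSNs (SD, n = 4). The Stoml3 gene (ENSMUSG00000027744) lies at chr3:53488653-53508502 on the plus strand, with 7 exons in its longest transcript and 861 coding bases. An unclassified transcript, 6430500D05Rik, starts 426 bases after it on the same strand and was at 0.850 ± 0.056 UMIs per 10000.

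The Stoml3 promoter is shown because the level of Stoml3 separated the stages and, later, the receptor populations. The window of 300 bases, chr3:53488457-53488756 on the plus strand (RefSeq, GRCm38.p6), has 250 bases before the transcription start in lower case and 50 bases from the start in capitals. RefSeq puts that start at base 53488707, downstream of the GENCODE start of the gene given above, so the last of the lower-case bases lie within the gene as GENCODE draws it. The level of Omp also separated the stages and differed among populations, but the set of promoters held no entry for Omp, so its promoter is not shown.

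Stoml3: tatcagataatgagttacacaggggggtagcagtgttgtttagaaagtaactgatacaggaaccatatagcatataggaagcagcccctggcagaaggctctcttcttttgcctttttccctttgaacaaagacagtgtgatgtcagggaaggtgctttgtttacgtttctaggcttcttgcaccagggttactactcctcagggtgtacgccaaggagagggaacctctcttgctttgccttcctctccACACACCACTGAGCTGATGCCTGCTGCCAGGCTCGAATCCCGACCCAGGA

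The window was searched on both strands for CCCNNGGG, the core recognised by EBF factors, for TAATTA, a core of homeodomain sites such as those of LHX2 and EMX2, and for TATAAA, the box bound by the TATA-binding protein. None of the 3 motifs occurred in it. For comparison, CCCNNGGG occurred in 13.7% of all 32851 promoters and in 6 of the 13 promoters found for a list of 15 mature-neuron and transduction genes. TAATTA occurred in 5.29% of all promoters and TATAAA in 13.6%.

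Omp and Stoml3 were low in precursors, low in the earlier immature OSNs (iOSN1), and high in the later immature OSNs (iOSN2) and the mature OSNs. Omp was at 68.0, 75.8, 69.9 and 74.8 UMIs per 10000 in the mature OSNs of mice 1 to 4, a mean of 72.1 ± 3.8. It was at 43.9, 49.5, 48.6 and 47.3 in iOSN2 and at 5.25, 6.54, 5.18 and 6.15 in iOSN1. The ranges of the 3 stages did not overlap, and every mouse showed the same order.

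Stoml3 followed the same order. It was at 87.8, 81.7, 78.6 and 84.2 UMIs per 10000 in mature OSNs, a mean of 83.1 ± 3.9. It was at 54.1, 55.1, 56.7 and 56.0 in iOSN2, and at 6.79, 6.22, 6.15 and 7.39 in iOSN1. Cell types were assigned by the authors from expression, and Omp was among the genes by which mature OSNs were recognised, so these levels are a description without a test.

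As a share of its own mature level within a mouse, Omp stood at 7.99% ± 0.54 in iOSN1 and at 65.7% ± 2.7 in iOSN2 (SD, n = 4). Stoml3 stood at 7.99% ± 0.53 and at 66.9% ± 4.3. The step from iOSN1 to iOSN2 was 8.26-fold ± 0.84 for Omp and 8.40-fold ± 0.76 for Stoml3, and the step from iOSN2 to mature OSNs was 0.61 ± 0.06 and 0.58 ± 0.09 on the log2 scale. At every one of these steps the values of the 2 genes overlapped between mice, and the larger part of the increase of both lay between the immature stages.

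**Figure D1:**
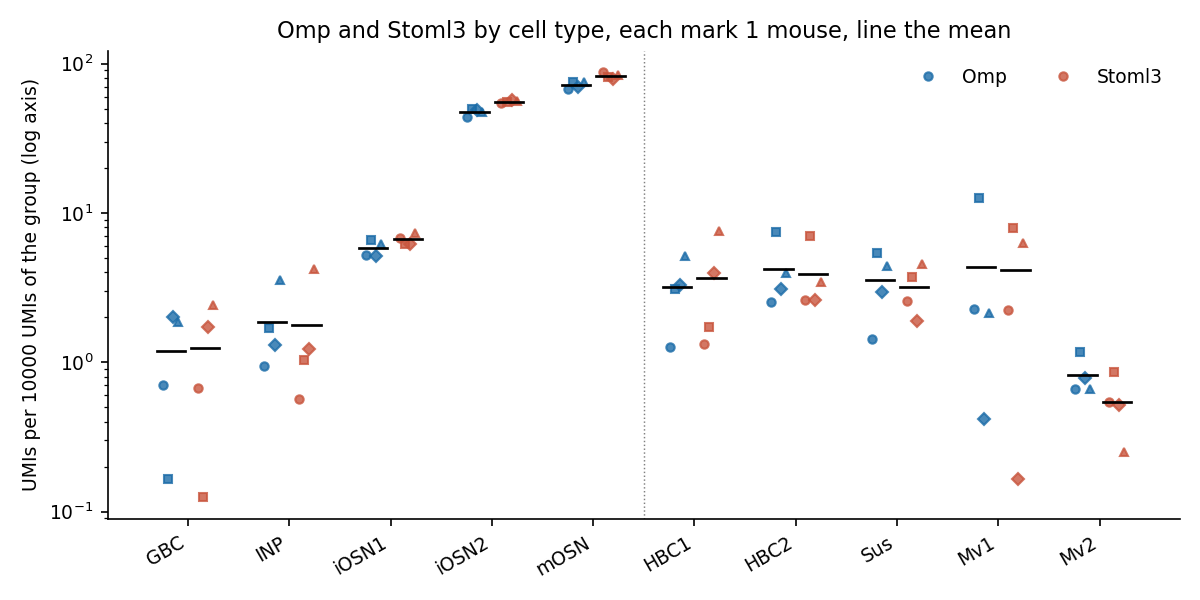
Levels of Omp and Stoml3 in 10 cell types, as UMIs per 10000 UMIs of the group on a log axis. Each mark is 1 mouse, its shape naming the mouse, and each line is the mean of 4 mice. The neuronal lineage is left of the dotted line, where both genes climb from iOSN1 to mature OSNs, and the other types are right of it.

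In the other 7 types Omp ranged from 0.166 to 12.7 UMIs per 10000 in single mice and Stoml3 from 0.124 to 7.96. Those types were globose basal cells (GBC), immediate neuronal precursors (INP), horizontal basal cells (HBC1 and HBC2), sustentacular cells (Sus) and microvillous cells (Mv1 and Mv2). In the order of the 10 types, the ranges of neighbours overlapped for 7 of 9 pairs for each gene, and from iOSN1 down no neighbours were separated. The lowest mean was in Mv2 for both genes, at 0.822 ± 0.236 for Omp and 0.542 ± 0.249 for Stoml3. Without the cells of highest doublet score these means were 0.544 and 0.319, and Omp stood at 0.693 in place of 1.18 in GBC, 2.81 in place of 4.24 in HBC2, 2.30 in place of 3.54 in Sus and 2.44 in place of 4.37 in Mv1. Stoml3 stood at 0.817 in place of 1.24 in GBC, 2.53 in place of 3.92 in HBC2 and 1.99 in place of 3.19 in Sus. As means over cells, both genes stood between 1.81 and 2.45 in HBC1, HBC2, Sus and Mv1, where the means of summed UMIs were between 3.19 and 4.37, and in thinned cells they stood between 1.98 and 2.50 in HBC1, HBC2 and Sus. Omp in Mv1 was at 1.61 without mouse 2, and Stoml3 was at 0.943 in place of 1.76 in INP and at 2.33 in place of 3.65 in HBC1 without mouse 4.

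Stoml3 UMIs per Omp UMI averaged 1.16 ± 0.15 in iOSN1, 1.17 ± 0.05 in iOSN2 and 1.15 ± 0.09 in mature OSNs. The ratio was 0.646 ± 0.190 in Mv2 and 0.926 ± 0.087 in HBC2, and in both every mouse was below the range of mature OSNs. It varied widely between mice in Mv1, from 0.400 to 2.94, and in Sus, from 0.646 to 1.80. How much of the low levels is free RNA from broken neurons was not tested.

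The OSN stages were checked against their markers. Adcy3, the cyclase of odorant signalling, was at a mean of 10.97 UMIs per 10000 in mature OSNs and at 0.693 in iOSN1. Gng13, also a marker of mature OSNs, separated iOSN2 from them far less than Adcy3 did, by the shares given below. Gap43, a growth-cone protein of young neurons, was at 32.3 in iOSN1, 8.75 in iOSN2 and 0.176 in mature OSNs. Ptprc, which marks white blood cells, had means between 0.00231 and 0.0128 in the 3 OSN stages. Among the other types, Mki67, a protein of dividing cells, was at 3.40 in GBC, and Neurod1, a factor of neuronal precursors, at 9.63 in INP and 5.62 in GBC. Krt5, a keratin of basal cells, was at 21.3 in HBC1 and 7.28 in HBC2, and Cyp2g1, an enzyme of sustentacular cells, at 71.4 in Sus but also at 25.7 in HBC2. The channel Trpm5 was at 6.01 in Mv1 and the transcription factor Ascl3 at 19.5 in Mv2.

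Single cells were compared after each was thinned to 3000 UMIs, which left out cells with fewer. With 1 or more Omp UMIs were 41.2% ± 3.6 of iOSN1, 99.9% ± 0.2 of iOSN2 and 100% of mature OSNs. The shares were 11.7% ± 1.9 in Mv2 and 15.3% ± 5.4 in Sus, which should lack the gene, and 13.6% ± 1.0 in INP, at median depths before thinning of 5493, 6012.5 and 8049 UMIs, against 6969 in iOSN1. Without thinning the shares were 52.7% ± 8.7 in iOSN1, 19.2% ± 4.7 in Mv2 and 23.7% ± 5.4 in INP. The share in iOSN1 stood above that of Mv2 and Sus in every mouse, and the share in INP lay within the range of Sus.

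With 1 or more Stoml3 UMIs were 32.7% ± 2.2 of iOSN1, 99.0% ± 0.5 of iOSN2 and 99.99% ± 0.03 of mature OSNs after thinning. The shares were 7.97% ± 1.94 in Mv2, 10.7% ± 1.9 in Sus and 7.20% ± 3.19 in INP. Without thinning the shares were 39.0% ± 3.8 in iOSN1 and 13.7% ± 4.5 in Mv2.

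Within iOSN1 the genes were found unevenly. Of 831 thinned cells, 432 held neither, 210 held both, 129 held Omp alone and 60 held Stoml3 alone. Omp alone was the more frequent in each mouse, with 14.5%, 17.8%, 17.3% and 13.2% of cells against 5.13%, 9.39%, 7.05% and 7.46% for Stoml3 alone. In Mv2, 147 cells of 1523 held Omp alone and 89 held Stoml3 alone. The part of free RNA in these counts was not tested. By iOSN2, 952 of 962 cells held both.

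The median thinned iOSN2 cell held 14 Omp and 15 Stoml3 UMIs, and the median mature OSN held 20 and 24. In mature OSNs the lower and upper quartiles were 16 and 26 Omp UMIs, and 16 and 33 Stoml3 UMIs. Across cells of 1 mouse, Spearman's rho between the genes was 0.589 to 0.721 in iOSN1, 0.405 to 0.501 in iOSN2 and 0.171 to 0.186 in mature OSNs (831, 962 and 8947 cells). These cells share a library and a thinned depth. With the UMIs of the cell's receptors, rho was 0.228 to 0.370 for Omp and 0.298 to 0.424 for Stoml3 in iOSN1. In iOSN2 it was -0.040 to 0.088 for Omp and -0.033 to 0.028 for Stoml3. In mature OSNs it was 0.0071 to 0.069 for Omp and -0.0053 to 0.044 for Stoml3, too weak to read. With Stom in mature OSNs it was 0.274 to 0.336 for Omp and 0.157 to 0.179 for Stoml3.

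Omp and Stoml3 resembled each other more than any other gene did over the 10 types. Among 3519 genes other than receptors at 0.5 or more UMIs per 10000 in mature OSNs, Pearson's r on the log2 scale was 0.997 between them. Next to Omp came Plekhb1 (0.994), Stom (0.992), Nrn1l (0.989) and Dcdc2a (0.988), and next to Stoml3 came Plekhb1 (0.993), Stom (0.992), Gnal (0.987) and Nrn1l (0.985). Stom encodes stomatin, the founding member of the family of Stoml3, and Gnal the G protein subunit that couples receptors to the cyclase. The 10 points share libraries and are dominated by the contrast of neurons with other types.

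Stom had the same order of stages, from 1.62 ± 0.20 UMIs per 10000 in iOSN1 to 12.5 ± 1.2 in iOSN2 and 22.6 ± 1.4 in mature OSNs. Stoml1 stood at 0.719 ± 0.052, 0.844 ± 0.083 and 0.797 ± 0.037 and Stoml2 at 0.537 ± 0.023, 0.557 ± 0.035 and 0.576 ± 0.023. Among channels that stomatins are known to act on, Asic1, an acid-sensing channel, was at 0.536 ± 0.043 in mature OSNs. Piezo1 and Piezo2, the mechanosensitive channels, were found with 3 and 2 UMIs in 10519 mature OSNs.

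The other mature-neuron genes varied more in how far they had come by iOSN2. All 15 listed genes of maturity and transduction had their highest stage mean in mature OSNs, with a median of 16.2% of the mature level in iOSN1 and 60.0% in iOSN2. S100a5, a calcium-binding protein, stood at 3.05% in iOSN1 and 65.7% in iOSN2. Adcy3 stood at 25.8% in iOSN2, and Gng13, a G protein subunit, at 92.2%. Omp and Stoml3, at 65.7% and 66.9% in iOSN2, lay between these.

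Of the 10 immature-neuron genes, 7 were highest in iOSN1, 2 in INP and 1 in iOSN2. Of Bex1 to Bex4, a family with members that bind the olfactory marker protein, 3 were highest in GBC and Bex2 in iOSN2. Bex1 was at 1.16 ± 0.09 UMIs per 10000 in iOSN1, 0.413 ± 0.044 in iOSN2 and 0.0499 ± 0.0057 in mature OSNs. Bex2 was at 3.93 ± 0.38, 4.08 ± 0.27 and 2.68 ± 0.19.

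Immature OSNs were next split by receptor expression. A receptor counted as expressed above 8.28 UMIs per 10000, a limit taken from mature OSNs. Cells with several receptors above it were kept among those with a receptor, and cells without may express a receptor below it. In iOSN1 both genes were higher where a receptor was expressed. Omp was at 6.50, 7.75, 6.73 and 7.76 UMIs per 10000 in the 579 cells with a receptor, against 2.56, 2.52, 1.26 and 1.66 in the 287 without. The groups did not overlap. The difference was 1.74 ± 0.11 on the log2 scale (SE; edgeR quasi-likelihood test with the mouse as block, adjusted p = 2.7e-16), 3.34-fold, and 28.8% of the 8393 genes tested were called in this comparison, 14.8% higher and 14% lower.

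Stoml3 was at 9.20, 7.47, 8.46 and 9.03 UMIs per 10000 in iOSN1 with a receptor and at 1.59, 2.09, 0.304 and 2.79 in those without, with no overlap. It differed by 2.32 ± 0.16 (adjusted p = 1.0e-14, edgeR), 5.01-fold, and was higher in 4 of 4 mice. Without the cells of highest doublet score, 2 of the 75 in mouse 4, its Stoml3 level without a receptor was 1.27 in place of 2.79, and Omp in mouse 1 was 1.75 in place of 2.56, and both calls held (2.46 for Stoml3 and 1.86 for Omp on the log2 scale). The levels without a receptor lay within the range of types that should lack the genes. Median depth was 5992 to 9960 UMIs with a receptor and 4933.5 to 7526.5 without. Both calls held after the counts were thinned to one depth. The groups themselves were set at full depth, so whether depth affected the split was not tested. The median mitochondrial percentage of the UMIs was lower with a receptor in 4 of 4 mice, at 0.467 to 0.721 against 0.684 to 0.941, and its part in the differences was not tested.

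Where 14.8% of all genes tested rose and 14% fell with receptor expression in iOSN1, 11 of the 14 tested maturity and transduction genes rose and 0 fell, with a median log2 difference of 0.67 against -0.01 over all genes tested. Cnga2, a subunit of the transduction channel, rose by 1.94 ± 0.14, Ano2, the chloride channel that follows it, by 1.78 ± 0.30, Gnal by 1.38 ± 0.10 and Cnga4, another channel subunit, by 1.28 ± 0.27. Of 7 regulators, 6 fell, namely Ebf1, Ebf2, Ebf3, Emx2, Ldb1 and Lhx2, transcription factors and cofactors of OSN identity. Of 10 immature-neuron genes, 5 rose and 1 fell, and of the 4 tested stomatin-list genes, Stom and Asic1 rose.

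In iOSN2, 38 cells, 7 to 11 per mouse, had no receptor above the limit, against 968 with one or more. Stoml3 was at 55.1, 55.7, 57.5 and 55.9 UMIs per 10000 with a receptor and at 23.1, 28.6, 40.9 and 57.3 without. It was higher with a receptor in mice 1 to 3 and level in mouse 4, a difference of 0.76 ± 0.12 (adjusted p = 3.8e-06, edgeR), in a comparison that called 1.19% of 8053 genes, 0.36% higher and 0.832% lower. DESeq2 gave 0.69 with an adjusted p of 0.074. Here too the median mitochondrial percentage was lower with a receptor in 4 of 4 mice, at 0.466 to 0.700 against 0.693 to 1.22.

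Omp was at 44.2, 49.8, 49.0 and 47.5 in iOSN2 with a receptor and at 37.7, 38.1, 42.4 and 41.1 without. These ranges did not overlap, but the difference of 0.36 ± 0.11 did not pass (adjusted p = 0.10, edgeR). It passed with no filter on low counts (0.53, adjusted p = 7.7e-06) and without the highest doublet scores (0.43, adjusted p = 0.044). With no filter, however, the median log2 difference over all genes tested was 0.65, above that of Omp, where it was 0.09 in the main setting. In the lists, Gnal (0.68 ± 0.13), S100a5 (0.95 ± 0.12) and Gng13 (0.57 ± 0.11) rose with a receptor, and Gng8, a G protein subunit of immature OSNs, fell by 2.54 ± 0.18; none of the regulator, stomatin or Bex genes passed.

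Residual Gap43 was used as another sign of immaturity, in cells thinned to 3000 UMIs. The authors recognised mature OSN clusters by high Omp and a lack of Gap43, so both genes had a part in the types compared here. The p-values of the Gap43 comparisons do not allow for that. In iOSN2, Omp was at 40.5, 45.6, 47.3 and 46.1 UMIs per 10000 in the 695 cells with a Gap43 UMI and at 58.0, 63.4, 54.3 and 55.9 in the 267 without. The groups did not overlap, and the difference was -0.41 ± 0.05 (adjusted p = 5.9e-13, edgeR; 3.46% of 4995 genes were called, 1.52% higher and 1.94% lower). Stoml3 was at 52.0, 52.4, 53.9 and 53.8 with Gap43 and at 63.2, 62.0, 64.1 and 66.1 without, a difference of -0.30 ± 0.05 (adjusted p = 2.9e-07, edgeR) with no overlap. Both were lower in 4 of 4 mice, and both calls held in all 10 alternatives run.

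In the same cells, 6 of 9 tested immature-neuron genes were higher with Gap43, against 1.52% of all genes tested, led by Gng8 (2.25 ± 0.25), Stmn1 (1.29 ± 0.07) and Dpysl3 (1.23 ± 0.21), proteins of growing neurites apart from Gng8. Of the 14 tested maturity genes 5 were lower, against 1.94% of all genes, S100a5 by -1.12 ± 0.05. Stom was lower by -0.39 ± 0.07 (adjusted p = 6.6e-07, edgeR).

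Among mature OSNs, 337 of 8947 thinned cells held a Gap43 UMI. In 4 of 4 mice these had the higher median depth before thinning, 4629 to 7500.5 against 4303.5 to 6816 UMIs, and the lower median mitochondrial percentage, 0.743 to 1.077 against 0.961 to 1.34, whose part in the differences was not tested. Omp was at 58.5, 70.8, 65.3 and 69.4 UMIs per 10000 in these and at 69.9, 75.8, 72.9 and 72.5 in the others. It was lower in 4 of 4 mice, by -0.19 ± 0.05 (adjusted p = 0.012, edgeR; 2.49% of 10479 genes were called, 1.14% higher and 1.36% lower), but the groups overlapped, and the call was lost when any mouse was left out (adjusted p between 0.062 and 0.31), without the mouse block (adjusted p = 0.65) and at 5000 UMIs (adjusted p = 0.21). Stoml3 was at 88.9, 79.1, 73.7 and 83.0 with Gap43 and at 88.6, 83.0, 79.9 and 84.6 without, a difference of -0.09 ± 0.05 that did not pass (adjusted p = 0.52, edgeR). In this comparison 6 of 9 tested immature-neuron genes were higher, Marcksl1 by 2.27 ± 0.41, Tubb2b by 1.37 ± 0.16, Stmn1 by 1.27 ± 0.10 and Dpysl3 by 1.44 ± 0.39, and 7 of 15 maturity genes were lower.

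**Figure D2:**
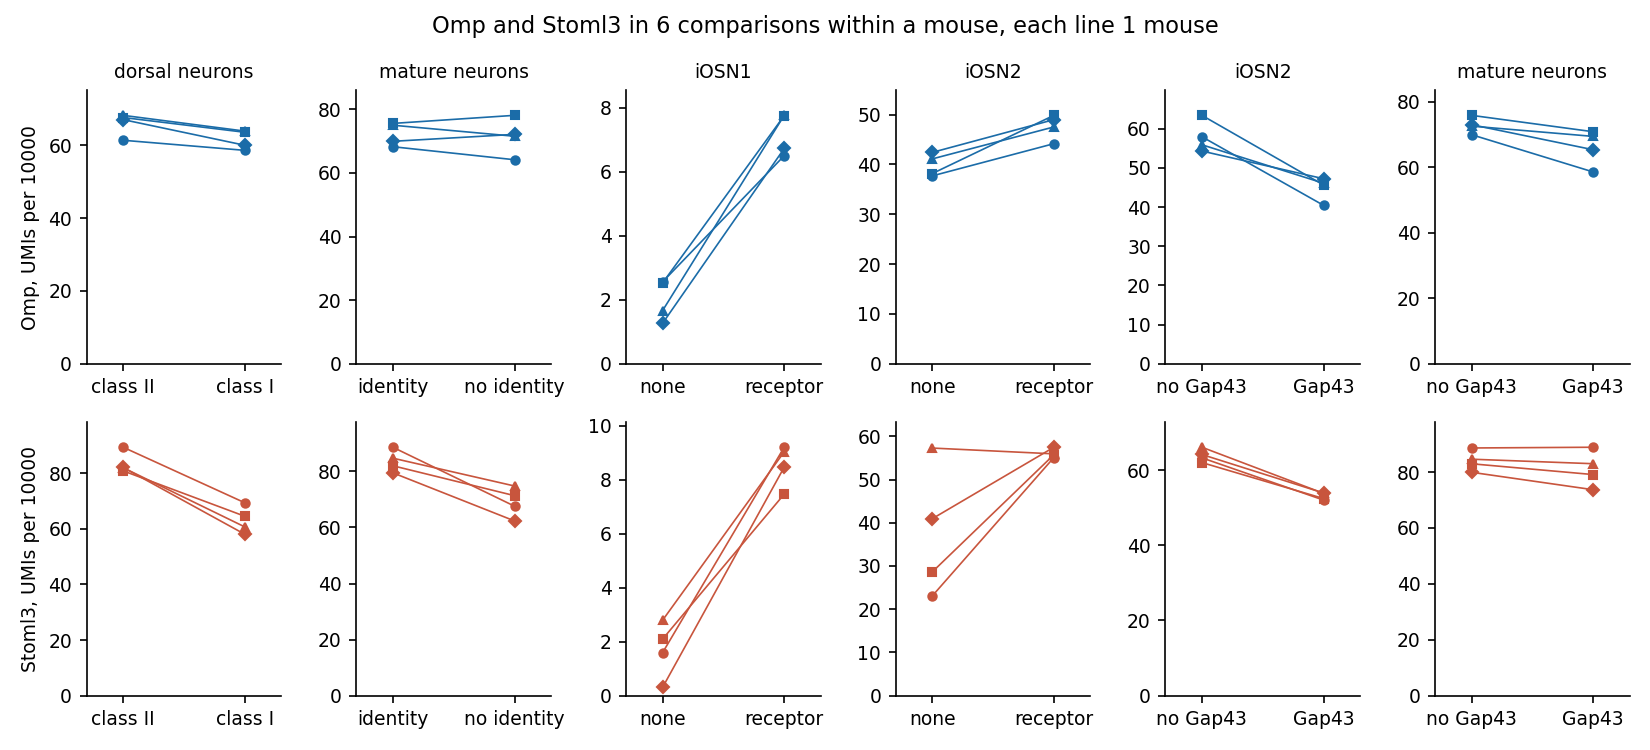
Levels of Omp (upper row) and Stoml3 (lower row), as UMIs per 10000, in 6 comparisons between groups of neurons of the same mouse. Each line joins both groups of 1 mouse, and every axis starts at 0. Each panel has its own scale, and the iOSN1 panels, where every line climbs with a receptor, reach 7.76 for Omp and 9.20 for Stoml3.

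The 2 genes spread differently among mature OSNs. Among the 10 clusters into which the authors divided mature OSNs, mean Omp differed by 1.35-fold and mean Stoml3 by 2.70-fold. Clusters are named by position (D. dorsal, V. ventral) and by a marker gene, and since they were made from expression, these levels too are a description. Omp was highest in Ventral neurons, at 74.8, 82.7, 75.96 and 80.7 UMIs per 10000. It was lowest in Cd55+ V. neurons, at 55.1, 57.5, 63.1 and 56.7. In the order of the clusters, all 9 pairs of neighbours overlapped for Omp.

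Stoml3 was highest in Calb2+ V. neurons, at 117, 111, 115 and 115 UMIs per 10000. Calb2+ D. neurons followed at 97.1 ± 4.9 and Ventral neurons at 94.4 ± 4.9, and these overlapped. Below them came Dorsal (80.2 ± 2.7), Dlg2+ V. (67.0 ± 3.9) and Dlg2+ D. (62.7 ± 4.2) neurons, the last pair overlapping.

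The Cd36+ and Cd55+ clusters were at the low end. Stoml3 was at 53.0 ± 1.8 in Cd36+ V., 48.7 ± 1.1 in Cd55+ V., 45.8 ± 2.6 in Cd36+ D. and 42.3 ± 3.8 in Cd55+ D. neurons. In all, 5 of the 9 neighbouring pairs were apart. With the same marker, the ventral cluster had the higher mean of Stoml3 in all 5 pairs of dorsal and ventral clusters. The Stoml3 to Omp ratio went from 0.657 ± 0.080 in Cd55+ D. to 1.54 ± 0.10 in Calb2+ V. neurons. Stom means differed by 1.90-fold, from 15.1 ± 1.3 in Cd36+ D. to 28.8 ± 2.1 in Calb2+ V. neurons.

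**Figure D3:**
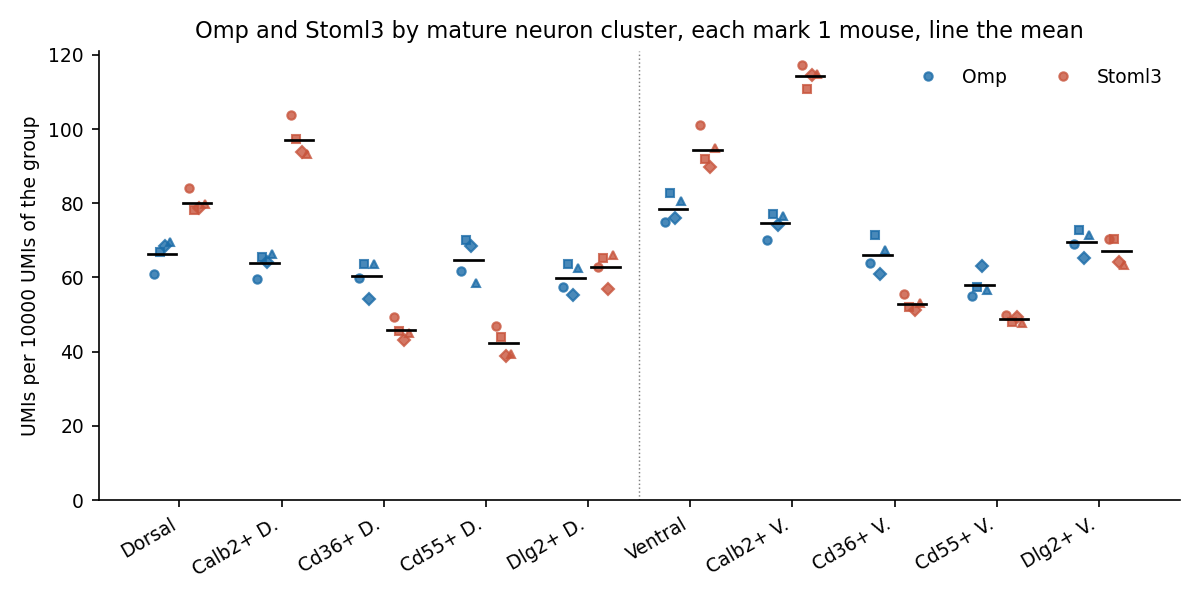
Levels of Omp and Stoml3 in the 10 clusters of mature OSNs, as UMIs per 10000. Each mark is 1 mouse and each line the mean of 4 mice, with dorsal clusters left and ventral clusters right of the dotted line. Stoml3 spans from 42.3 to 114 while Omp stays between 58.1 and 78.5.

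The receptor populations were tested in the same way. Over the 98 populations with at least 3 neurons in every mouse, both genes differed among populations by an F test in edgeR (Omp F = 6.03, adjusted p = 7.5e-36; Stoml3 F = 36.4, adjusted p = 6.7e-140), as did 52.4% of the 1979 genes tested. Stoml3 ranked 10 of 1979 by F and Omp 119. By the size of the spread, the SD of the fitted population levels was 0.50 on the log2 scale for Stoml3 and 0.22 for Omp. The median over all genes tested was 0.35. With no filter on low counts that median was 0.55 over 20924 genes, and how the spread depends on the count of a gene was not tested.

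Levels recurred between mice. Spearman's rho over the 98 populations was 0.901 to 0.935 between pairs of mice for Stoml3 and 0.477 to 0.684 for Omp. Between Omp averaged over 2 mice and Stoml3 averaged over the other mice, rho was 0.436 to 0.638 over the possible splits. These are averages of mice, unlike the single-mouse values before them. Over the means of all 134 populations rho between the genes was 0.545. Omp had a rho of 0.584 with the median mitochondrial percentage of a population and of -0.251 with its median UMI count, while Stoml3 had 0.269 and -0.0549. The part of mitochondrial RNA and depth in the levels was not tested.

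Among the 134 populations, mean Omp ranged from 49.0 to 106 UMIs per 10000, with a median of 72.6. The highest were neurons of Olfr286 (106 ± 10), Olfr31 (100.5 ± 13.0), Olfr117 (99.5 ± 25.04, n = 3), Olfr60 (99.2 ± 15.1) and Olfr169 (97.5 ± 11.3), all mostly in the Ventral cluster. The lowest were neurons of Olfr839-ps1 (49.0 ± 7.4), Olfr661 (50.1 ± 15.7), Olfr592 (53.2 ± 11.7), Olfr354 (53.6 ± 6.6) and Olfr689 (53.7 ± 1.4). Of these, Olfr839-ps1 and Olfr354 neurons lay mostly in the Cd55+ V. cluster, and Olfr661, Olfr592 and Olfr689 are class I receptors. The low Olfr661 value of mouse 4 rested on 1 neuron.

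Mean Stoml3 ranged from 25.6 to 152, with a median of 78.4. The highest were neurons of Olfr309 (152 ± 22), Olfr1507 (147 ± 10), Olfr15 (146 ± 11), Olfr972 (145 ± 15) and Olfr741 (143 ± 13), from the Ventral and Calb2+ V. clusters. The lowest were neurons of Olfr592 (25.6 ± 2.9), Olfr553 (26.1 ± 2.2), Olfr839-ps1 (28.6 ± 3.0), Olfr566 (31.0 ± 4.4) and Olfr1271 (41.2 ± 9.4). Olfr309 neurons were at 160, 161, 120 and 168 UMIs per 10000 in the 4 mice and Olfr553 neurons at 26.6, 29.0, 24.1 and 24.6.

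**Figure D4:**
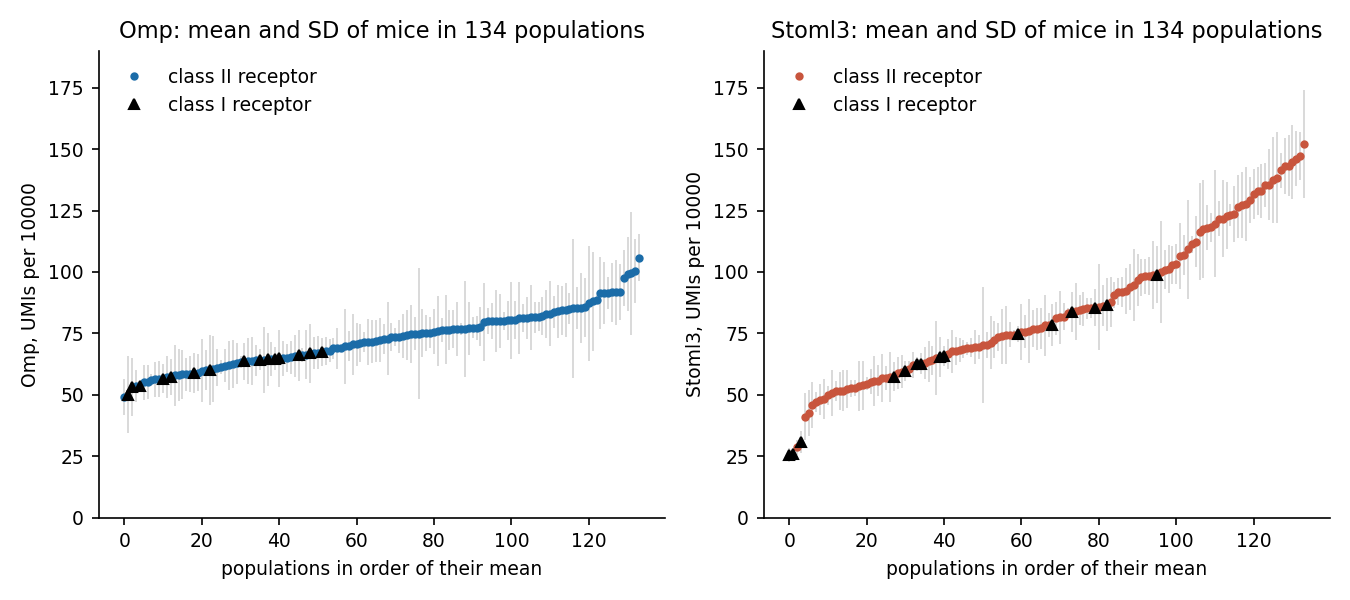
Omp (left) and Stoml3 (right) in 134 receptor populations placed in the order of their means, as UMIs per 10000 on equal axes. Points are means and bars SDs of the mice, and triangles are class I receptors. The curve of Stoml3 runs from 25.6 to 152 and that of Omp from 49.0 to 106.

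Against the mean of all populations, Stoml3 was called in 63 of 98, 32 higher and 31 lower, and Omp in 20, 10 higher and 10 lower, where 4.24% of all pairs of a gene and a population were called, 3.13% higher and 1.11% lower (edgeR, adjusted over 193942 pairs). Stoml3 in Olfr309 neurons was higher by 0.87 ± 0.07 (adjusted p = 1.5e-24) and in Olfr553 neurons lower by -1.57 ± 0.11 (adjusted p = 1.1e-36). Omp in Olfr286 neurons was higher by 0.54 ± 0.09 (adjusted p = 9.3e-08) and in Olfr689 neurons lower by -0.45 ± 0.09 (adjusted p = 1.7e-04). With at least 5 neurons in each mouse, 42 populations remained, with 25 called for Stoml3 and 12 for Omp.

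Both genes were called the same way in 15 populations, 7 higher and 8 lower, and in opposite ways in 1. That was Olfr1490, named because it was alone, with Omp at 65.1, 59.8, 61.7 and 48.2 UMIs per 10000 and Stoml3 at 101.7, 107.9, 110.9 and 92.7. In 24 populations Stoml3 alone was higher and in 23 it alone was lower.

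Calls followed the clusters in part. Of the 60 tested populations found mostly in the Ventral cluster, 27 were higher and 12 lower in Stoml3, so populations of 1 cluster differed among themselves. All 5 tested Cd55+ V., 4 Dlg2+ V., 2 Cd36+ D. and 1 Cd36+ V. populations were lower in Stoml3. The 1 tested Calb2+ D. population was also lower, while 4 of 6 Calb2+ V. populations were higher and 0 lower. Of 17 Dorsal populations 6 were lower and 1 higher, and of 2 Dlg2+ D. populations 0 were lower or higher. Omp was higher in 10 Ventral populations and in no other, and lower in 4 of 5 Cd55+ V., 4 of 17 Dorsal, 1 Calb2+ V. and 1 Ventral populations. Within the Ventral cluster, population means ran from 49.9 to 152 for Stoml3 and from 57.3 to 106 for Omp.

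**Figure D5:**
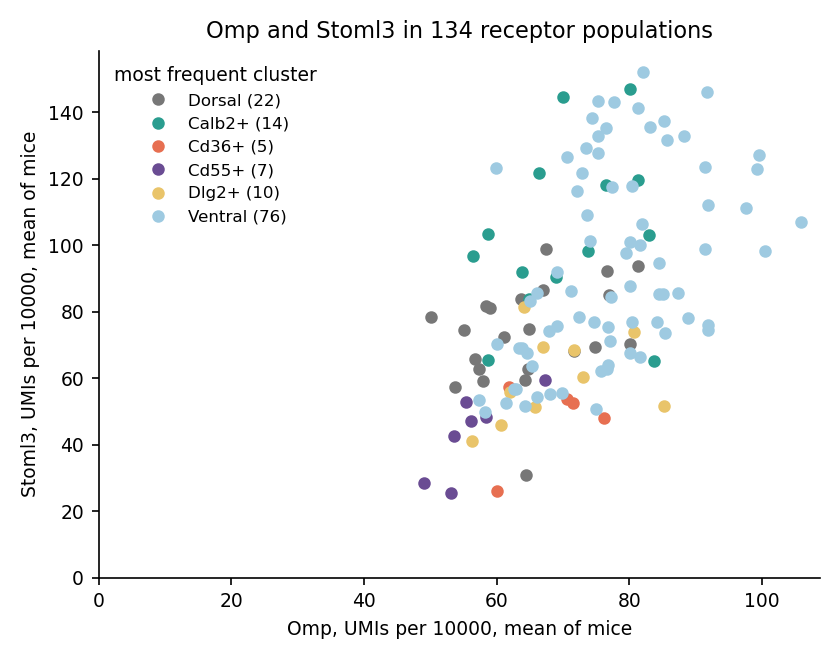
Mean Omp (horizontal) against mean Stoml3 (vertical) in 134 receptor populations, as UMIs per 10000, coloured by the marker of the cluster that holds most of their neurons. Calb2+ populations lie from 65.1 to 147 in Stoml3 and Cd55+ and Cd36+ populations from 25.6 to 59.4, at overlapping levels of Omp.

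At this resolution most of the genes nearest in pattern were other ones, with Plekhb1 near Omp in both. Over 134 populations the 5 genes most like Omp included Cnga2 (r = 0.736), Adcy3 (0.725), Plekhb1 (0.722) and Gfy (0.685), and Stoml3 stood lower in that order at 0.560. Most like Stoml3 were Cnga4 (0.776), Cnga2 (0.763), Mslnl (0.724), Lrrn1 (0.708) and Lima1 (0.670). Cnga2 was among the 5 for both, and the points share libraries.

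Of the listed genes, all 14 tested maturity and transduction genes differed among populations, S100a5 most (F = 61.7), then Pde4a (9.85), Pde1c (8.99), both phosphodiesterases, and Cnga2 (8.56). So did Stom (7.37), 3 of 3 tested immature-neuron genes, 4 of 6 regulators, and Bex2 and Bex3, where 52.4% of all genes tested were called, so the share of the regulators was near that of all genes. The SD of S100a5 over populations was 1.82 on the log2 scale.

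Class I receptors, the family whose genes lie in 1 cluster on chromosome 7, are expressed mostly in dorsal neurons. The dorsal clusters held 967 of the 1071 class I neurons, so class I was compared with class II within them. Stoml3 was at 69.4, 64.5, 58.0 and 60.7 UMIs per 10000 in class I neurons and at 89.4, 80.9, 82.1 and 82.0 in class II neurons, without overlap. It was lower by -0.37 ± 0.02 (adjusted p = 1.4e-19, edgeR; 5.74% of 9499 genes were called, 3.23% higher and 2.51% lower) in 4 of 4 mice. All neurons of a class were summed within a mouse, so the SE and p-value do not measure the spread among receptors. Class I neurons also had the lower median mitochondrial percentage, 0.746 to 1.07 against 0.801 to 1.29, and the higher median depth, 3961 to 6871 against 3622 to 5971.5 UMIs, in 4 of 4 mice, and the part of these in the difference was not tested. Omp was at 58.6, 63.5, 60.0 and 63.9 against 61.4, 67.6, 67.0 and 68.2, and its difference of -0.06 ± 0.02 did not pass (adjusted p = 0.054); with scaling by total UMIs it was -0.10 and passed (adjusted p = 2.0e-04). The classes were spread unequally over the 5 dorsal clusters. The Cd36+ D. and Cd55+ D. clusters, low in Stoml3, held 12.1% and 9.20% of the class I neurons against 4.65% and 3.08% of the 1722 class II neurons, and Calb2+ D. held 11.8% against 20.8%. Within single clusters, a description added after the values were seen, mean Stoml3 was 71.4 ± 2.8 in class I and 85.3 ± 3.8 in class II for Dorsal, 38.7 ± 3.0 and 57.6 ± 3.9 for Cd36+ D., and 53.4 ± 5.7 and 72.0 ± 2.9 for Dlg2+ D., each without overlap between the mice. It was 91.7 ± 7.7 and 98.97 ± 6.13 for Calb2+ D. and 39.2 ± 4.3 and 47.8 ± 4.6 for Cd55+ D., where the ranges overlapped and class I was the higher in mouse 2.

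The 15 class I populations with 20 or more neurons had a median Omp of 63.6 and a median Stoml3 of 65.4, against 74.7 and 81.5 in the 119 class II populations. The populations of the classes overlapped. Stoml3 means ran from 25.6 to 99.0 in class I and from 28.6 to 152 in class II, and Omp means from 50.1 to 67.5 and from 49.0 to 106. Over all mature OSNs, Stoml3 was lower in class I by -0.40 ± 0.02 (adjusted p = 9.3e-44, edgeR) and Omp by -0.17 ± 0.02 (adjusted p = 4.9e-11), in a comparison that called 18.6% of 11835 genes, 9.71% higher and 8.89% lower. Here too the receptors were not the replicates. The Omp call was lost without the mouse block (adjusted p = 0.22, edgeR). Class I neurons had the lower median mitochondrial percentage in every mouse here too, at 0.748 to 1.07 against 0.976 to 1.43. Its part in the differences was not tested.

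In the dorsal clusters 4 of 15 maturity genes (Cnga2, Cnga4, Gnal and Pde4a) were lower in class I, against 2.51% of all genes tested, and S100a5 was higher by 0.35 ± 0.02. Of the 8 tested immature-neuron genes 3 were lower and 1 was higher, against 2.51% and 3.23% of all genes tested. Gap43 was lower by -1.53 ± 0.21 and Stmn1 by -0.50 ± 0.08, Stmn4 was also lower, and Stmn2 was higher. Stom was lower by -0.09 ± 0.03 (adjusted p = 0.023, edgeR). Over all mature OSNs 10 of 15 maturity genes were lower and 2 higher, against 8.89% and 9.71% of all genes tested. Tubb2b and Stmn2 were higher by 0.86 ± 0.09 and 0.59 ± 0.04, and Gap43 and Dpysl3 lower by -0.79 ± 0.19 and -0.92 ± 0.26.

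Among mature OSNs, 384 had no receptor above the limit. Stoml3 was at 67.6, 71.4, 62.3 and 74.8 UMIs per 10000 in these and at 88.6, 82.0, 79.5 and 84.7 in the 9791 with an identity, without overlap. It was lower by -0.28 ± 0.05 (adjusted p = 1.5e-06, edgeR), in a comparison that called 0.406% of 11814 genes (0.245% higher, 0.161% lower), and the call was lost without the mouse block (adjusted p = 0.79). Omp was at 64.1, 78.1, 72.1 and 71.5 against 68.2, 75.6, 69.9 and 74.99, higher in 2 mice and lower in 2, a difference of -0.02 ± 0.05 (adjusted p = 0.99). The Stoml3 to Omp ratio was lower without an identity in 4 of 4 mice, by differences from -0.40 to -0.11 on the log2 scale, a comparison of the 2 genes that was not tested. Of the listed genes, S100a5 was higher by 0.53 ± 0.05, and Ano2 and Adcy3 were lower by -0.33 ± 0.08 and -0.24 ± 0.05, and these 3 calls were also lost without the block and in DESeq2.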

How the data were processed

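The cells of the main olfactory epithelium of 4 mice were captured with the 10x Genomics chemistry, which tags the polyadenylated end of transcripts. The authors aligned reads with Cell Ranger 6.0.1 to GRCm38 with redrawn receptor gene ends, and deposited raw UMI counts per gene and barcode. The deposited cell table also gives counts of UMIs and of genes detected, the mitochondrial percent of the UMIs, the ratio of UMIs to genes (not used here), the cell type, the cluster and the receptor identity, which were used as given. The authors had left out immune, blood and high-mitochondrial clusters. The number of columns of other samples was 0.

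The 2 genes and the gene lists were chosen with earlier results of these data known. The genes named from the lists are the 4 with the largest absolute log2 difference (or F) among those called per comparison, and Stom is named throughout as the closest relative of Stoml3. The 5 genes of highest r with either gene were named, except 1 that is not reported here, and the 5 populations at each end. Genes named beside these, as members of a count as markers or for their levels by stage, were chosen after their values were seen.

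UMIs were summed per mouse and group. edgeR 4.0.16 (R 4.3.3) quasi-likelihood tests (two-sided) used TMM scaling, filterByExpr, the mouse as a block and Benjamini-Hochberg adjustment over all genes tested at 0.05, without 1430 receptor genes. The groups of 1 mouse come from the same animal and library, which is the pairing; correlations of their deviations were 0.0046 to 0.385 over the 7 comparisons, 0.079 to 0.212 for neurons without an identity and 0.057 to 0.172 for Gap43 in mature OSNs. The SE of a log2 difference is its size over the root of F. DESeq2 1.42.0, other scalings, no filter, thinned counts and leaving out mice were alternatives. The population model used the current quasi-likelihood fit of edgeR (legacy off), and could be fitted with no filter for the F test alone. Scripts were tested on simulated counts. The limit for a receptor was the median minus 3 median absolute deviations of the log highest receptor, and equalled the deposited call in 10518 of 10519 mature OSNs.

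Doublets were scored with Scrublet (scanpy 1.11.5). Its own threshold called 3, 2, 4 and 36 barcodes, under 0.5% of the barcodes in 3 of 4 mice, where it did not work, and in an alternative the 4% of cells scoring highest within a mouse were dropped. Gene positions came from GENCODE M21 on GRCm38. SDs are over mice. With 4 mice and 1 library each, animal and library cannot be told apart.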

Additional observations from a re-analysis of the deposited data

Results flagged for a closer look

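Among 112 groups of 4 mice examined, 6 had 1 mouse far from the other 3 by Dixon's criterion, and chance alone gives about 1 in 20 such groups. Omp in Mv1 cells was 12.7 UMIs per 10000 in mouse 2, whose 26 Mv1 cells are few. The share of thinned iOSN2 with an Omp UMI was 99.6% in mouse 1, and that of mature OSNs with a Stoml3 UMI was 99.9% in mouse 2, where the other mice were at 100%. The share of thinned Sus with an Omp UMI was 23.4% in mouse 3. Stoml3 in class II neurons of the dorsal clusters was 89.4 UMIs per 10000 in mouse 1, and Stoml3 in Olfr741 neurons was 124.6 in mouse 4.

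Both genes were also measured in clusters that the authors left out. Omp was at 6.53 UMIs per 10000 in immune, 3.30 in blood and 33.0 in high-mitochondrial clusters, and Stoml3 at 6.41, 4.54 and 21.1, as means of 4 mice. What the source of these UMIs was, was not tested.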

How the results depend on the processing

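The mouse was the block, since both groups of a comparison came from the same animals. With no replicate block the numbers of genes called were 1080 in place of 2201 for class I against class II, 208 in place of 545 in the dorsal clusters, 8 in place of 48 for neurons without an identity, 106 in place of 261 for Gap43 in mature OSNs and 74 in place of 173 in iOSN2. DESeq2 called 1017, 143, 11, 103 and 29 in these, and 1160 in place of 2419 for receptor expression in iOSN1. Thinned cells gave 1237, 278 and 15 for the first 3, 1250 for iOSN1 and 26 in place of 96 for iOSN2, where no filter gave 218. The F test called 480 in place of 1037 in thinned cells and 1910 with no filter. With 5 neurons per mouse, 12 populations were called for Omp and 25 for Stoml3. Leaving out each mouse gave 60 to 93 genes for the receptor in iOSN2, 151 to 215 and 76 to 99 for Gap43 in mature OSNs and iOSN2, and 13 to 16 populations for Omp. Fewer mice or cells were used in the last 2 kinds of setting; other causes were not tested.

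Without the replicate block, the log2 difference of Omp between classes was -0.17 (adjusted p = 0.22), that of Stoml3 without an identity -0.28 and that of Omp with Gap43 in mature OSNs -0.18, none of them called by edgeR. In the dorsal clusters Omp was called with total scaling (-0.10) and with no filter (-0.085), and leaving out each mouse gave -0.072 to -0.046. Omp without an identity turned to 0.012 in DESeq2 and ranged from -0.034 to 0.012 with a mouse left out. In iOSN2, the Omp difference with a receptor was 0.53 with no filter, where the median over all genes tested was 0.65. It was 0.43 without the highest doublet scores, and the Stoml3 difference was 0.69 in DESeq2. For Gap43 in mature OSNs, Omp was -0.15 in DESeq2, -0.10 at 5000 UMIs and -0.22 to -0.15 with a mouse left out, and Stoml3 was -0.18 with no filter and 0.011 at 5000 UMIs. The cause was not tested.

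With total UMI scaling the calls split into 763 higher and 1519 lower between classes (1149 and 1052 with TMM), 230 and 328 in the dorsal clusters (307 and 238), 1512 and 942 in iOSN1 (1240 and 1179), and 103 and 66 for Gap43 in iOSN2 (76 and 97). For Gap43 in mature OSNs it was 152 and 120 (119 and 142).

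In iOSN1, Omp was 4.99 UMIs per 10000 without the highest doublet scores, 4.64 in thinned cells and 4.44 as a mean over cells, and Stoml3 5.45, 5.19 and 4.88. The mature Omp level was 76.03 as a mean over cells. Shares of iOSN1 were 51.5% for Omp and 40.9% for Stoml3 at 5000 UMIs, and 26.0% and 21.7% for at least 2 UMIs, where iOSN2 had 99.2% and 98.1% and mature OSNs 99.95% for Stoml3. With a pseudocount of 1, 3 of the 5 genes most like Omp over cell types were shared. Among values of single list genes, populations and types, 24 calls were lost and 17 values moved, 0 reversed. Contrasts of single populations with no filter were not run.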
